A study of Abies pinsapo with 12 samples.

Results

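Needles of Spanish fir (Abies pinsapo) collected in August 2016 were compared with needles collected in May 2017, over 6 August and 6 May libraries, which are all 12 libraries of the series. Libraries were chosen by the month in their titles, and the comparison was made within field treatments. Adult trees stood in the field in the Sierra de las Nieves in southern Spain. Control trees grew in dense stands that were left unthinned, so that they competed for both light and water. Thinning trees grew in plots whose tree density was lowered in 2004. Trees with thinning plus shading stood in a thinned plot under a mesh that imitated the light of the control stands. Each treatment has 2 libraries in August and 2 in May. Each month was sampled once and in its own year, so season, year and any batch tied to a sampling cannot be told apart. The labels do not say whether 2 libraries of a group come from separate trees, so p-values measure the spread between these libraries, which may be technical.

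Spanish fir is a drought-sensitive conifer of Mediterranean mountains, where summer is the dry season. Conifers keep their needles for several years, so a needle passes through spring, when new shoots grow out, and through summer, when stomata close and growth slows under water shortage. A comparison of May with August therefore sets needles from 2 contrasting parts of the growing season side by side. The table pairs its identifiers with no gene names, so no function is given for any transcript, and tissue markers could not be checked. The tissue label of all 12 libraries is needles, although the extraction text speaks of roots of maritime pine seedlings.

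The deposited values are TPM (the length-corrected part of a library that a transcript makes up) times 1 factor per library, called scaled TPM here. Library factors lay between 0.857 and 0.932 in August and between 1.02 and 1.18 in May. TPM keeps no depth, so the sequencing depth is unknown. The table lists 329801 transcripts, of which 19726 reached 10 in 2 or more libraries and entered the test. Of these, 13639 reached 10 in at least 2 libraries of both months, 2138 did so in August alone and 3510 in May alone; the last groups had to differ to some degree in order to be tested. In both thinning May libraries something stood apart. Replicate 1 listed 208032 transcripts above 0, against 81710 to 117855 in the other libraries. Replicate 2 took the lowest weight, 0.156, when libraries were weighted by their fit, against 0.582 to 2.09 for the others. The number of calls, those at 4-fold or more and those in the most abundant classes are therefore also given without each of them.

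Among abundant transcripts that differed by 4-fold or more, some averaged above 1000 scaled TPM in one month and were lower in the other without overlap between libraries. TRINITY_DN15726_c0_g1 stood in August at 2169 and 254 scaled TPM in control, then 548 and 30.2 in thinning, and 1730 and 2694 in thinning plus shading (replicates 1 and 2). In May it stood at 2.46 and 0.926 in control, 0.908 and 6.04 in thinning, and 1.68 and 2.12 in thinning plus shading. The groups did not overlap, but the August libraries themselves spread widely, with thinning replicate 2 lowest. The means were 1238 ± 1107 in August and 2.36 ± 1.91 in May (SD, n = 6; log2 difference 7.62, SE 0.91; limma adjusted p = 0.0012).

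TRINITY_DN3060_c0_g1 was higher in August with a steadier August level. Its August values were 976 and 1664 scaled TPM in control, 1041 and 1368 in thinning, and 1498 and 763 in thinning plus shading. Its May values were 165 and 689 in control, 360 and 88.8 in thinning, and 353 and 205 in thinning plus shading. The lowest August library, at 763, lay just above the highest May library, at 689. The log2 difference was 2.21 (SE 0.44; limma adjusted p = 0.01).

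TRINITY_DN22085_c0_g1 was lower in August. It stood in May at 2094 and 389 scaled TPM in control, 299.8 and 2648 in thinning, and 375 and 914 in thinning plus shading. In August it stood at 101 and 149.6 in control, 37.6 and 63.5 in thinning, and 75.2 and 93.9 in thinning plus shading. All May libraries were above all August libraries. The May libraries were split in each treatment, with control replicate 1, thinning replicate 2 and thinning plus shading replicate 2 higher. The means were 86.8 ± 38.2 in August and 1120 ± 1009 in May (SD, n = 6; log2 difference -3.27, SE 0.58; limma adjusted p = 0.0066).

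TRINITY_DN3905_c4_g1 had nearly the same values, from 28.4 to 141 scaled TPM in August and from 292 to 2448 in May (medians 77.6 and 631; log2 difference -3.36, SE 0.59; limma adjusted p = 0.0063). Its highest and lowest libraries in each month were the same libraries as those of TRINITY_DN22085_c0_g1. Whether reads are shared between the 2 assembled transcripts could not be checked without their sequences. Since their months do not overlap, the August minus May log2 difference of these 4 has 1 sign in each treatment. It ran from 5.16 to 9.54 for TRINITY_DN15726_c0_g1, from 1.92 to 2.73 for TRINITY_DN3060_c0_g1, from -4.16 to -2.78 for TRINITY_DN22085_c0_g1 and from -4.38 to -2.83 for TRINITY_DN3905_c4_g1. All 4 calls were kept without any 1 of the 12 libraries, and all 4 were lost without the 4 libraries of thinning plus shading (limma adjusted p from 0.063 to 0.11). Their log2 differences were then 6.66, 2.32, -3.52 and -3.62 in the order named. The call of TRINITY_DN3060_c0_g1 was also lost without the control trees (limma adjusted p = 0.051). The 4 named transcripts were taken as the most abundant of 22 higher and 13 lower transcripts, out of 19726 tested. Those were called, differed by 4-fold or more, averaged at least 100 in the higher month and did not overlap between months. The lack of overlap in the 4 thus follows from the choice.

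**Figure D1:**
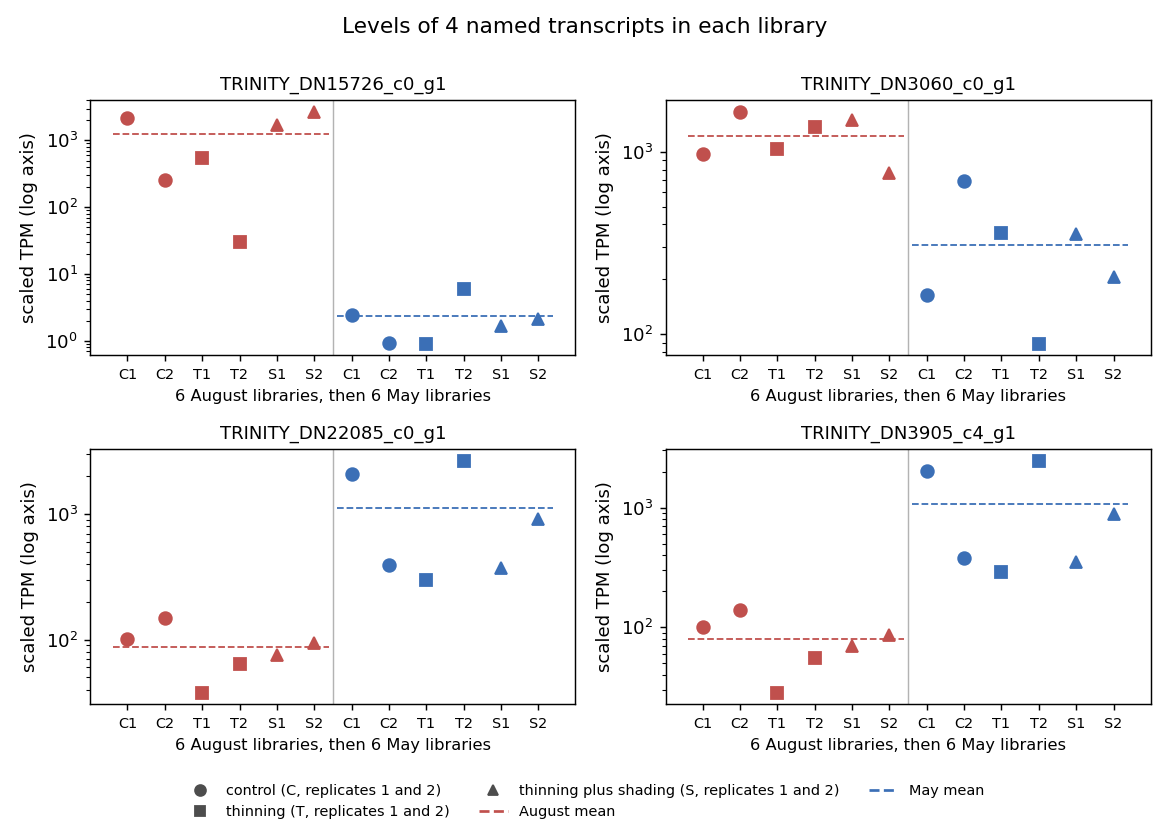
Scaled TPM (log axis) of the 4 named transcripts in each library, August libraries on the left in red and May libraries on the right in blue, with marker shape for the treatment and a dashed line at the mean of each month. No August library overlaps a May library in any panel, which the choice of these transcripts required. TRINITY_DN15726_c0_g1 ranges from 30.2 to 2694 among the August libraries.

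Needle transcripts of every abundance class differed between the months. Of the 19726 tested, 3006 (15.2%) were called at a limma adjusted p under 0.05, with 1479 (7.5%) higher in August and 1527 (7.74%) lower. Transcripts that reached 10 in at least 2 libraries of both months gave 1836 calls (13.5% of them), 903 higher and 933 lower. The other calls passed the filter only through the month in which they were high and so had to differ in that direction: 576 were higher (26.9% of those that passed through August alone) and 594 lower (16.9% of those that passed through May alone). The count was 3137 without thinning May replicate 1 (1415 higher, 1722 lower) and 4199 without thinning May replicate 2 (1885 higher, 2314 lower). It fell furthest, by over 1.5 times, without thinning August replicate 1 (1726 calls), thinning plus shading August replicate 2 (1738), thinning plus shading May replicate 2 (1751) and control August replicate 1 (1908). Of the 3006 calls, 1469 (48.9%) were made in the same direction in all 12 fits that leave out 1 library, 752 of them higher and 717 lower. These had a median absolute log2 difference of 1.12, against 0.77 for the calls that were lost at least once.

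Most of the differences were modest. The median log2 difference was 0.96 among the higher calls and -0.90 among the lower ones, against -0.05 over all tested transcripts. The quartiles of the higher calls were 0.69 and 1.48, and those of the lower calls -1.39 and -0.64. A difference of 2-fold or more was seen in 709 higher calls (47.9%) and 647 lower calls (42.4%). The calls at 4-fold or more were 193 higher and 220 lower, at 8-fold 45 and 75, and at 16-fold 9 and 17. All these counts include the 576 higher and 594 lower calls that passed the filter through 1 month alone and so had to differ. Of the calls at 4-fold or more, 59 higher and 87 lower had a mean under 10 scaled TPM, where most transcripts passed in that way. Without thinning May replicate 1 the calls at 4-fold or more were 199 higher and 289 lower, and without replicate 2 they were 235 and 406. Beyond 32-fold the higher calls numbered 5 and the lower calls 1. The precision of the comparison sets a limit here: a 95% confidence interval reached a median of 0.52 log2 units to either side. A test of a difference above 2-fold (limma treat), chosen after the data had been seen, passed for 26 transcripts (0.132%), 17 higher and 9 lower.

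Large differences were not always called. Of the 16720 transcripts that were not called, 2136 (12.8%) had a difference of 2-fold or more, with a spread between libraries too wide for the test. Another 9600 (57.4%) had an unadjusted 95% confidence interval that lay wholly within 2-fold in both directions. Near-complete switches were rare: 2 transcripts, both called, were at 10 or more in all 6 August libraries and under 1 in all 6 May libraries. The opposite pattern was shown by 0. With a listed value of 0 in all libraries of the lower month, 0 transcripts switched in either direction.

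**Figure D2:**
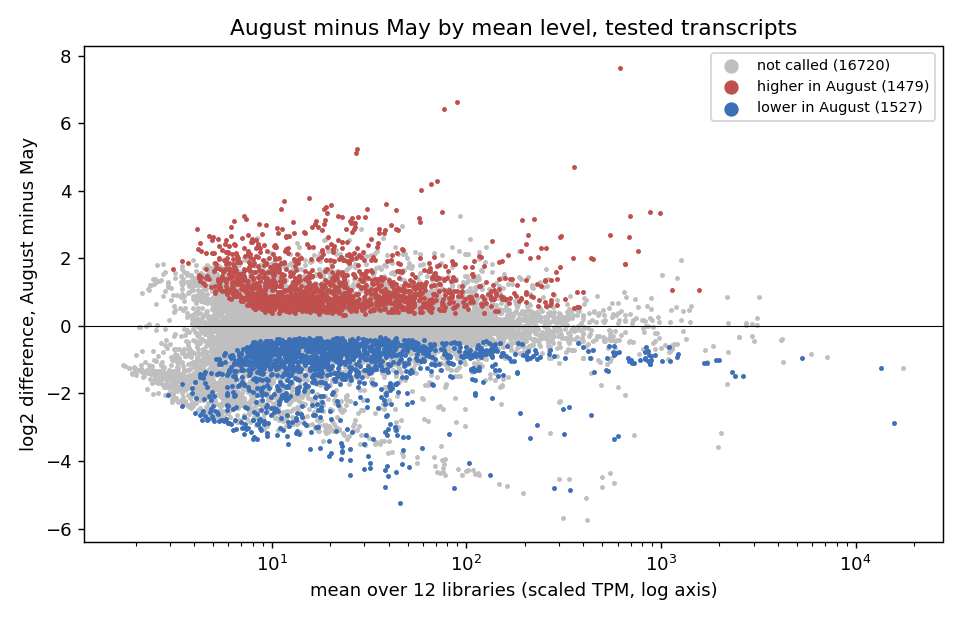
August minus May log2 difference (vertical axis) against the mean over 12 libraries in scaled TPM (log axis) for the 19726 tested transcripts, with 1479 higher calls in red, 1527 lower calls in blue and the rest in grey. Most calls lie within 4-fold of 0, and several of the largest negative differences at a mean above 100 are grey, that is, not called.

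The balance of the directions changed with abundance. Among 5257 transcripts with a mean under 10 scaled TPM over the 12 libraries, 6.66% were higher in August and 6.35% lower. Of these, 82.1% had reached the filter in 1 month alone, so their share of calls depends on the filter. Among 9095 transcripts at 10 to 30, the shares were 7.09% and 8.03%, and among 4082 at 30 to 100 they were 9.02% and 7.59%. The 968 transcripts at 100 to 300 gave 9.5% and 9.81%. Up to this level the share of either direction lay between 6.35% and 9.81% of a class.

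Above 300 scaled TPM, on the scale as deposited, lower calls outnumbered higher ones, but that balance turned with the scaling. Among 257 transcripts at 300 to 1000, 22 (8.56%) were higher in August and 43 (16.7%) lower. Among 67 at 1000 or more, 2 (2.99%) were higher and 15 (22.4%) lower. In this top class the median log2 difference of all 67 was -0.60, whereas it lay between -0.12 and -0.02 in the 4 classes below 300; it was -0.30 with the library factor removed and -0.15 with quantile normalization. At 300 to 1000 the share of calls that were higher was 33.8% as deposited, 61.2% with the factor removed and 48.2% with quantile normalization. At 1000 or more it was 11.8%, 40% and 60% in the same order. In the 4 classes below 300 it ran from 46.9% to 54.3%, from 78.9% to 89% and from 57.9% to 64.8%. The share at 300 to 1000 was thus below that of each lower class under all 3 scalings. At 1000 or more it was below them as deposited and with the factor removed, but not with quantile normalization. At 300 to 1000 there were 48 lower calls without thinning May replicate 1 and 69 without replicate 2, beside 21 and 25 higher ones. Lower calls at 1000 or more numbered 8 without thinning May replicate 1 and 25 without replicate 2, beside 2 and 4 higher ones. Of the 100 most abundant tested transcripts, which average 825 or more, 4 were higher in August and 28 lower (4 and 18 without thinning May replicate 1, 7 and 41 without replicate 2). With the library factor removed the counts among those 100 were 9 higher and 15 lower, and with quantile normalization 10 and 11, so their excess of lower calls depends on the scaling.

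The size of the difference also varied with abundance. Calls at 300 to 1000 scaled TPM included the largest share at 4-fold or more, 29.2%, against 21.3% under 10, 11.5% or less in each of the 3 classes from 10 to 300, and 5.88% (1 of 17) at 1000 or more. Of the transcripts under 10, 82.1% had reached the filter in 1 month alone, so the sizes in that class depend on the filter. The higher calls at 300 to 1000 had a median log2 difference of 2.01, and 12 of those 22 were 4-fold or more higher in August. The 43 lower calls of that class had a median of -0.96. The spread between libraries was widest in the lowest class, with a median residual SD of 0.67 log2 units under 10, 0.36 at 10 to 30 and 0.49 at 1000 or more.

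The directions depend on how libraries are scaled to each other, because the library factor itself differs between the months. As deposited, 49.2% of the calls were higher in August. With the factor removed, so that each library sums to the same total, 4708 transcripts were called and 85.0% were higher (4000 higher, 708 lower). With quantile normalization 3029 were called and 61.9% were higher (1875 higher, 1154 lower). Removing the factor moved the median log2 difference of all tested transcripts by 0.28, from -0.05 to 0.23, and quantile normalization moved it by 0.08.

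Both alternative scalings move the differences upward, so calls shared by all 3 scalings favour the higher direction by construction, and their balance says nothing of which direction is the more frequent. Of the 1479 higher calls, 1476 (99.8%) were called higher under all 3 scalings. Of the 1527 lower calls, 628 (41.1%) were called lower under all 3. No transcript was called higher under one scaling and lower under another. These 2104 shared calls were 70.2% higher, and the 628 lower ones had a median log2 difference of -1.35 as deposited. Of the 413 calls at 4-fold or more, 87.4% were shared by the 3 scalings, 193 higher and 168 lower. In the shared calls 6.62% to 9.5% of each class under 300 scaled TPM were higher and 2.94% to 4.34% lower. At 300 to 1000 the shared calls were 22 higher and 23 lower of 257, and at 1000 or more they were 2 higher and 4 lower of 67.

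**Figure D3:**
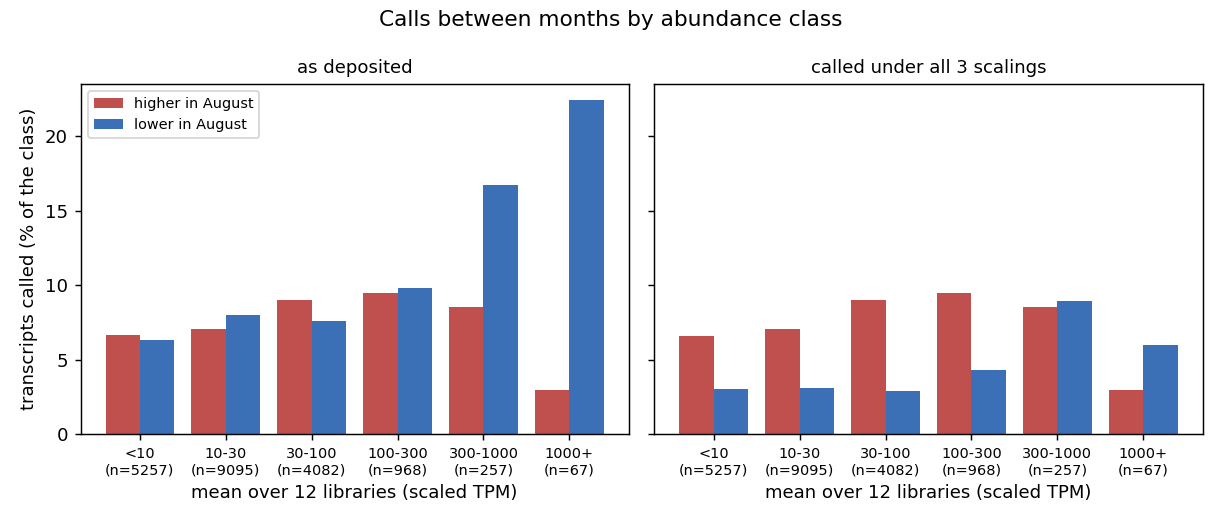
Percent of tested transcripts called higher (red) and lower (blue) in August, by class of mean scaled TPM over the 12 libraries, as deposited (left) and for calls shared by all 3 scalings (right). The excess of lower calls at 1000 or more (22.4% against 2.99%, n = 67) shrinks to 5.97% against 2.99% in the shared calls.

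The summed value of a library was also spread differently over levels. In each library, transcripts at 1000 or more scaled TPM held 12.3% to 16.1% of the summed value in August and 16.6% to 31.8% in May (means 14.4 ± 1.3% and 24.8 ± 6.0%, SD, n = 6 libraries; two-sided exact permutation within treatments p = 0.0093, adjusted 0.037 over 8 quantities). As deposited, all May libraries were above all August libraries, though thinning May replicate 1, at 16.6%, lay close to the highest August library. With the library factor removed the months overlapped, at 13.3% to 16.9% in August and 14.9% to 30.2% in May (exact permutation p = 0.028, adjusted 0.044). The p of 0.0093 is the smallest that relabelling months within treatments can give. Such transcripts numbered 56 to 66 in August and 65 to 104 in May (exact permutation p = 0.0093, adjusted 0.037), a difference that did not pass with the library factor removed (adjusted p = 0.37 by the same exact test).

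The middle levels held more of the August libraries. Transcripts at 100 to 1000 held 31.5 ± 1.0% in August and 26.0 ± 2.9% in May, and those at 10 to 100 held 38.4 ± 1.2% and 33.0 ± 2.7% (n = 6; exact permutation p = 0.019 each, adjusted 0.037). Without thinning August replicate 1 the first of these missed the threshold (adjusted exact p = 0.059), and without thinning August replicate 2 the second did (0.056). The part held by transcripts under 10 was 15.6 ± 0.9% and 16.2 ± 6.5% (n = 6; exact permutation p = 1), where thinning May replicate 1 stood at 29.3%. Without that library the August minus May difference turned from -0.57 to 2.18 percentage points (adjusted exact p = 0.025). The number of transcripts at 10 or more did not pass as deposited (13702 ± 355 in August, 14418 ± 572 in May; adjusted exact p = 0.059). It passed in the opposite direction with the library factor removed (14790 ± 351 and 13353 ± 889; adjusted exact p = 0.037).

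The month difference had the same sign in all 3 treatments for nearly every call: 1476 of the 1479 higher and 1524 of the 1527 lower calls, against 52.4% of all tested transcripts. The test favours this, since a call needs a difference that is steady over the libraries. The 3 exceptions among the higher calls were lower in August in control trees, and the 3 among the lower calls were higher in August in thinning trees. Median log2 differences of the higher calls were 1.12 in thinning trees, 0.95 with thinning plus shading and 0.76 in control trees. Those of the lower calls were -0.96, -0.91 and -0.83 in the same order. The thinning values rest on 2 May libraries that correlated with each other at 0.407 over the tested transcripts. Each of these libraries correlated at 0.511 or more with every August library. Control trees had the smallest of the 3 differences in 807 of the 1479 higher calls and in 507 of the 1527 lower ones. Over all 19726 tested transcripts, the signed difference was lowest in control trees for 6749 and highest in them for 4330. Its median over all tested was -0.14 in control trees and -0.03 in either group of thinned trees. The medians of the calls are not corrected for this shift.

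Separation within each treatment was less complete. The calls were made from the same 12 libraries, so the test favours separation in the same way. In 1126 of the higher calls (76.1%) both August libraries were above both May libraries in each of the 3 treatments, against 7.06% of all tested transcripts. In 1175 of the lower calls (76.9%) the reverse held, against 8.37%. All 6 August libraries were above all 6 May libraries in 762 higher calls (51.5%; 4.21% of all tested), and all below in 735 lower calls (48.1%; 4.47% of all tested). A difference of 2-fold or more in each treatment was seen in 334 higher and 365 lower calls, out of 366 (1.86%) and 899 (4.56%) tested transcripts with such a difference upward and downward. By abundance, the share of calls with no overlap between months was 63.1% at 300 to 1000 scaled TPM and 35.3% at 1000 or more (17 calls). It lay between 46.8% and 53.4% in the other classes. Of all tested transcripts, called or not, 14 at 300 to 1000 stood wholly above and 31 wholly below in August, out of 257. At 1000 or more these were 0 and 7 of 67. From the lowest class up to 300 they were 207 and 217 of 5257, 357 and 421 of 9095, 195 and 161 of 4082, and 57 and 44 of 968.

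**Figure D4:**
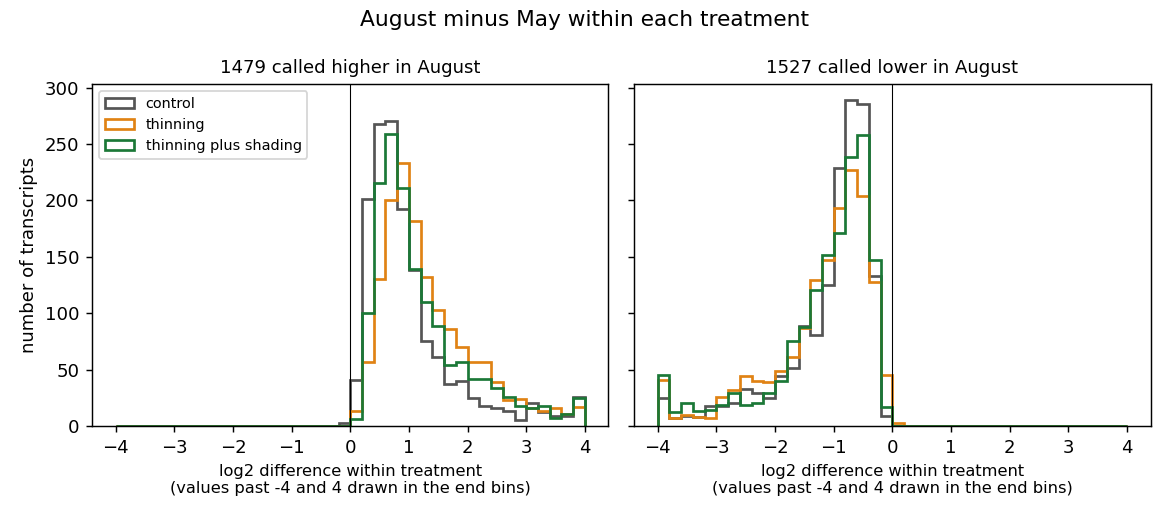
Histograms of the August minus May log2 difference within control, thinning and thinning plus shading trees for the 1479 higher calls (left) and the 1527 lower calls (right). The 3 distributions overlap broadly, with medians of 0.76, 1.12 and 0.95 on the left and -0.83, -0.96 and -0.91 on the right.

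Whether the month difference itself varied between treatments was tested with the month by treatment terms. No transcript was called (0%; limma F test, smallest adjusted p 0.132), and 1678 (8.51%) had an unadjusted p under 0.05. Of the 3 pairwise differences, control against thinning came closest (smallest limma adjusted p 0.071; 1768 transcripts, 8.96%, at an unadjusted p under 0.05). The unadjusted share was 8.64% for thinning with against without shading and 5.01% for control against thinning plus shading. With 2 libraries a group, the 95% confidence interval of such a difference reached a median of 1.22 log2 units to either side, so that treatment differences of 2-fold in the month effect lay within the error for most transcripts. The count was 621 without thinning May replicate 1, where replicate 2 is then the single thinning library of May. It was 34 with a pseudocount of 8, 70 without an intensity trend, and 0 under each of the other alternatives run.

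Calls made in the libraries of 2 treatments were then read in the third, whose libraries had no part in the fit, although the filter on low values had used all 12 libraries. Thinned trees with and without shading gave 520 higher and 266 lower calls; in control trees 94.8% of the former were higher in August and 98.5% of the latter lower. The median log2 difference of the higher ones was 1.54 in the fit and 0.80 in control trees, and that of the lower ones -1.45 and -1.03. Over all tested transcripts, 74.7% had the sign in control trees that they had in the fit.

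Control trees and trees with thinning plus shading gave 993 higher and 1312 lower calls. In thinning trees 84.7% of the higher ones were higher in August, with both August libraries above both May libraries in 67.2%, against 24.4% of all tested. Of the lower ones 79.3% were lower, with both August libraries below in 50.7%, against 21.7% of all tested. Over both directions the share with the same sign was 81.6%, against 69.7% over all tested transcripts. Read against thinning May replicate 2 alone, the share was 69.7%, beside 62.3% over all tested transcripts in that reading. Read against replicate 1 alone, it was 87.1%, beside 68.7%.

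Control and thinning trees together gave 4 calls, 3 higher and 1 lower, and all 4 had the same sign in trees with thinning plus shading. The number of calls thus depends heavily on the libraries of thinning plus shading: 3006 with them, 4 without. With the library factor removed, control and thinning trees gave 615 higher and 78 lower calls, of which 98.8% had the same sign in trees with thinning plus shading.

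The same reading was made for single libraries. For each library, calls were made from the other 11, and the library was placed on a line from the May mean (0) to the August mean (1), relative to the midpoint of its own treatment. August libraries lay between 0.68 and 1.06, with control August replicate 2 lowest. Thinning plus shading May replicate 2 lay at 0.00, control May replicates 1 and 2 at 0.15 and 0.34, and thinning plus shading May replicate 1 at 0.24. Thinning May replicates 1 and 2 lay at 0.42 and 0.55, near the midpoint.

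The position of the thinning May libraries differed between the directions of change. In transcripts called higher in August they lay at 0.22 and 0.24, on the May side. In transcripts called lower in August they lay at 0.56 and 0.74, on the August side of the midpoint. The position gives large differences more weight, so it is not an average over transcripts. With the midpoint averaged over the 3 treatments, a choice made after the data had been seen, the positions for lower calls were 0.49 and 0.70. Replicate 1 then lay just on the May side. The share of lower calls on the May side was 54.4% in replicate 1 and 51.8% in replicate 2, beside 50.4% and 56.3% of all tested transcripts on the side of their own month. In the other 4 May libraries it was 71.4% to 91.9%, beside 54% to 68.1%. Thinning plus shading May replicate 1 also differed between directions, at 0.06 for higher and 0.39 for lower calls. In the same order control May replicate 1 lay at 0.09 and 0.21, control May replicate 2 at 0.34 and 0.34, and thinning plus shading May replicate 2 at 0.01 and -0.02. Thinning May replicate 1 also lists far more transcripts above 0, and thinning May replicate 2 has the lowest weight. Both departures stand beside the position of these 2 libraries, and their part in it was not tested.

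**Figure D5:**
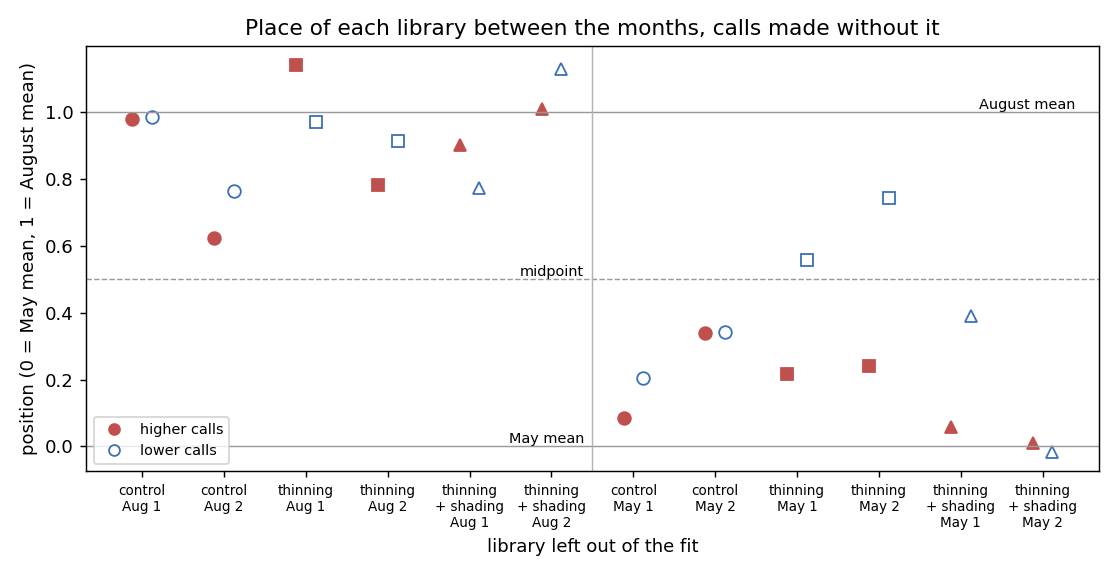
Position of each library between the May mean (0) and the August mean (1), for calls made from the other 11 libraries, in transcripts higher (red, filled) and lower (blue, open) in August. All 6 August libraries lie above the midpoint in both sets, and among the May libraries the 2 thinning libraries lie above it for the lower calls, at 0.56 and 0.74.

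Many calls shared an assembly component with another call. Calls fell in 2163 of the 12714 tested components, a component being the set of transcripts with the same DN and c numbers. In 795 components 2 or more transcripts were called, and in 772 of these (97.1%) all calls went in 1 direction. The other 23 components held calls in both directions. Over all 6017 components with 2 or more tested transcripts, called or not, 86.7% had differences of 1 sign. Transcripts of 1 component can be fragments or near-identical copies between which reads are split, so the 3006 calls are not 3006 independent genes. With values summed per component, 2141 of 15514 tested components (13.8%) were called, 1061 higher and 1080 lower.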

How the data were processed

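RNA of fir needles was sequenced in 12 libraries. Per the labels' protocols, RNA with an integrity number above 7 was poly(A)-selected, and TruSeq libraries were read as paired 150 bp reads. Trimmomatic, RSEM and DESeq2 are the tools in the submitters' processing notes (versions, assembly and filters: not given in the sources used here). Values of the deposited table are a signal: after rescaling to a total of 1000000, at least 99.35% of the values above 0 in a library lie within 0.1 step of a multiple of 0.01, so the values are TPM times 1 factor per library. No whole reads can be recovered, so count tests were not run.

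The month difference was fitted to log2(value + 1) by limma 3.58.1 (R 4.3.3), with treatment as an additive block (8 residual degrees of freedom), an intensity trend and Benjamini-Hochberg adjustment over the 19726 transcripts tested. Log2 differences on this scale understate low transcripts. Month by treatment terms were tested over 6 group means. Library quantities were tested by exact permutation of months within treatments. The same transcripts were tested when a library or treatment was left out or rescaled. The test was checked on simulated data with independent noise of equal spread in all libraries. That check does not cover the unequal weights and correlated May deviations of these libraries. Named transcripts are, per direction, the 2 most abundant in the higher month that meet the criteria given with them, 1 per component. Members, rules and tests were chosen with earlier results of these data known. Alternatives were other pseudocounts, filters, scalings, weights and fits.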

Additional observations from a re-analysis of the deposited data

Results flagged for a closer look

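Quantities were checked for a library far from the other 5 of its month, in 36 sets of 6 values; chance marks about 1 in 20 sets, and 5 were marked. Thinning May replicate 1 listed 133340 transcripts at 1 or more, against 47746 to 60118 in the other May libraries. In the same library, transcripts under 10 held 29.3% of the summed value, against 12.4% to 14.6%, and tested transcripts that were not called held 54.5%, against 66.2% to 72.0%. Control August replicate 2 had 45721 transcripts at 1 or more, the fewest of the August libraries, where the next had 49965. TRINITY_DN15726_c0_g1 stood at 6.04 scaled TPM in thinning May replicate 2, and at 2.46 or less in the other May libraries.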

How the results depend on the processing

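Pseudocounts of 0.5 and 8, a fit without the trend, 6 group means, values per component and leaving out the thinning trees kept the number of month calls within 1.5 times of 3006. A filter of 50 gave 902 calls of 4834 tested (465 higher, 437 lower) and no filter 1162 of 213102 (637 and 525), where the number tested itself changes. Library weights gave 4733 calls, 2639 of them lower. Removing the library factor gave 4708 (4000 and 708). Without control trees there were 786 (520 and 266), and without thinning plus shading 4 (3 and 1). Calls shared by all 3 scalings held 628 lower, and the test above 2-fold gave 26 (17 and 9). Leaving out 1 library gave 1726 to 4199 calls, 844 to 1885 higher and 824 to 2314 lower. Lower calls changed by over 1.5 times without control August replicate 1 (913), control May replicate 1 (999), thinning August replicates 1 and 2 (882 and 980), thinning plus shading August and May replicate 2 (824 and 840) and thinning May replicate 2 (2314), and higher calls without thinning August replicate 1 (844) and thinning plus shading August and May replicate 2 (914 and 911). Month by treatment calls ranged from 0 to 621 without 1 library, and were 34 with a pseudocount of 8 and 70 without the trend. The causes were not tested.

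With the library factor removed, the August minus May difference in transcripts at 10 or more turned from -716 to 1437, at 100 or more from -60.2 to 273, and at 1000 or more went from -29 to -7.83. Leaving out 1 library gave ranges of -806 to -626 (10 or more), -31427 to -2914 (1 or more), and, in percentage points of summed value, 4.17 to 6.90 (100 to 1000), 4.43 to 6.39 (10 to 100) and -3.32 to 2.18 (under 10). For calls made without thinning trees, the share with the same sign in them ranged from 69.7% to 91.8%; 1 fit without a library left no calls to read in control trees and 5 left none in thinning plus shading.

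Deviations of same-numbered August and May libraries correlated weakly, at 0.14 in thinning trees, 0.08 under shading and -0.26 in control trees. With 2 libraries a group, this cannot show whether libraries of the same number come from the same trees. Same-numbered May libraries of different treatments correlated at 0.63 between thinning and thinning plus shading, -0.71 between control and thinning and -0.54 between control and thinning plus shading. Control May replicate 1 thus deviated like replicate 2 of thinning and of thinning plus shading, whereas the p-values treat libraries as independent. The May values of the named transcripts were split along this line, in reverse for TRINITY_DN3060_c0_g1. Its cause was not tested. A replicate block gave 1774 calls (898 higher, 876 lower). Depth is unknown and could not be weighed.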
